A study of Mus musculus with 5 samples.

Results

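The matrix metalloproteinases and their inhibitors were described here by 10 genes, *Mmp2*, *Mmp11*, *Mmp14*, *Mmp15*, *Mmp16*, *Timp1*, *Timp2*, *Timp3*, *Reck* and *Bmp1*, named by symbol out of the 13486 genes with sense tags in at least 1 library. All 10 were listed with tags. Tag-seq, which counts short sequence tags next to NlaIII restriction sites of polyadenylated transcripts, was run on 5 mouse heart libraries at embryonic day 10.5 (Theiler stage 17). The AVC (atrio-ventricular canal), OFT (outflow tract), atria and ventricles came from C57BL/6 wild type embryos. The *Twist1* null AVC came from embryos with a *Twist1* knockout on the ICR strain, so genotype and strain cannot be told apart. Each group was 1 library of tissue pooled from at least 3 litters, without replicates, and each test below compares libraries, not conditions.

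Matrix metalloproteinases are zinc-dependent enzymes that cut collagens, proteoglycans and other proteins of the extracellular matrix. They are made as inactive proenzymes, and the TIMPs (tissue inhibitors of metalloproteinases) bind and block the active enzymes. MMP14 is anchored in the cell membrane and activates pro-MMP2 in a complex that includes TIMP2. In the AVC and the OFT of the embryonic heart, endocardial cells undergo an epithelial-to-mesenchymal transition and invade a matrix-rich cushion from which the valves form. RECK is a membrane-anchored glycoprotein that inhibits several of these enzymes, and BMP1 is a metalloproteinase of another family that removes the C-propeptides of fibrillar procollagens.

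The libraries held between 4223810 and 12977237 tags, the *Twist1* null AVC being the deepest. Levels are in TPM, tags per 1000000 tags of the library, and a tag type had to reach between 0.462 (*Twist1* null) and 1.42 (ventricles) TPM to be listed at all. A gene at 0 is therefore not listed, and ratios against it were taken as lower bounds, with 5 tags in each library for every tag type of the gene listed elsewhere. The exact p beside such a bound was taken with the gene at 0, not with those 5 tags. Where a gene has some tag types listed and others not, its ratio counts the missing ones as 0, and the value with 5 tags for each of them is given where it moves the ratio by over 1.5 times or ends a call. *Twist1*, the targeted gene, had 299 TPM in the OFT, 918 in the AVC, 63.4 in atria, 55.9 in ventricles and 4.55 in the *Twist1* null AVC. Haemoglobin tags made up 0.242% of the AVC, 0.307% of the OFT, 21.5% of the atria, 4.67% of the ventricles and 2.73% of the *Twist1* null library. The summed level of 6 cushion mesenchyme markers was 964 TPM in the OFT, 1150 in the AVC, 80.1 in atria, 70.8 in ventricles and 461 in the *Twist1* null AVC. That of 7 cardiomyocyte markers was 22521 TPM in the OFT, 20217 in the AVC, 7703 in atria, 22252 in ventricles and 18558 in the *Twist1* null AVC. Against the chambers, all 6 cushion markers were called higher in the AVC (5 with TMM normalization, explained below). So were 4 of the 7 cardiomyocyte markers (3 with TMM) and 3 of 7 endothelial markers (2 with TMM). Of all genes, 43.4% were called higher (25.6% with TMM). *Myl2* (cardiomyocytes) and *Emcn* (endothelium) were called lower, and TMM called 2 cardiomyocyte markers and 1 endothelial marker lower. The cardiac troponin gene *Tnnt2* had 3978 TPM in the AVC, 198 in atria and 453 in ventricles. *Myl7*, *Myh6*, *Myh7* and *Tnni1* were also higher in the AVC than in atria or ventricles. The remaining cardiomyocyte markers, *Myl2* and *Actc1*, were highest in ventricles. *Myl2* had 1067 TPM in the AVC, 55.5 in atria and 6196 in ventricles, and *Actc1* had 6283, 5782 and 13856. In tissue, fewer cells of a type and less RNA per cell cannot be told apart, and the part of cell makeup in the results below was not tested. Of 6 macrophage markers, *Adgre1* and *Lyz2* were at 0 in all 5 libraries and the summed level was at most 3.79 TPM.

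The tags that carry the results are shown first, since every level is a count of these sequences. Capitals mark the NlaIII site CATG. For *Mmp2* (3′ UTR, chr8:92853373-92853393, plus strand, GRCm38), *Mmp14* (coding sequence, chr14:54440616-54440636, plus strand), *Timp1* (coding sequence, chrX:20873112-20873132, plus strand), *Reck* (3′ UTR, chr4:43944460-43944480, plus strand) and *Bmp1* (3′ UTR, chr14:70474918-70474938, minus strand), 1 tag from the site nearest to the 3′ end held most of the gene's tags.

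Mmp2: CATGggaaatggcaaacaagt

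Mmp14: CATGggacgcccaagcgactg

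Timp1: CATGgaaagcctctgtggata

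Reck: CATGaagtatttttcagtgtt

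Bmp1: CATGccctcctgtcagtgggg

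These tags held 99.1% of all *Mmp2* tags, 88.0% of *Mmp14* tags, 80.2% of *Bmp1* tags and 100% of the tags of *Timp1* and *Reck*. The 10 genes together had 39 tag types, of which 26 lay in a 3′ UTR, 12 in coding sequence and 1 in a 5′ UTR. The 3′-most sites held 76.6% of their 14408 tags.

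For *Timp2* (minus strand of chromosome 11) and *Mmp15* (plus strand of chromosome 8) the tags were spread over distant sites of the 3′ UTR, so 2 tags of each are shown. AATAAA, the hexamer of the polyadenylation signal, is also in capitals where a tag holds it. In the 3′-most tag of *Mmp15* and in its neighbour, the capital after the site marks the base in which they differ.

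Timp2 proximal (chr11:118303593-118303613): CATGAATAAAacatcaatcat

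Timp2 3′-most (chr11:118301217-118301237): CATGtgcgtgctggaatatga

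Mmp15 upstream (chr8:95374261-95374281): CATGttcagagAATAAAatgc

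Mmp15 3′-most (chr8:95374970-95374990): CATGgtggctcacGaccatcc

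Neighbour of the Mmp15 3′-most tag: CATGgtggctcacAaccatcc

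The proximal *Timp2* site lay 2376 bases upstream of the 3′-most site, and the upstream *Mmp15* site 709 bases. Of the 45838 tag types of 1 gene seen in any library, 2.12% held AATAAA, as did 2 of the 39 tag types here. No annotated transcript of *Timp2* ended within 2544 bases after the proximal tag, and none of *Mmp15* within 819 bases after the upstream tag. A match to AATAAA is a description of the letters, not a mapped transcript end.

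**Figure D1:**
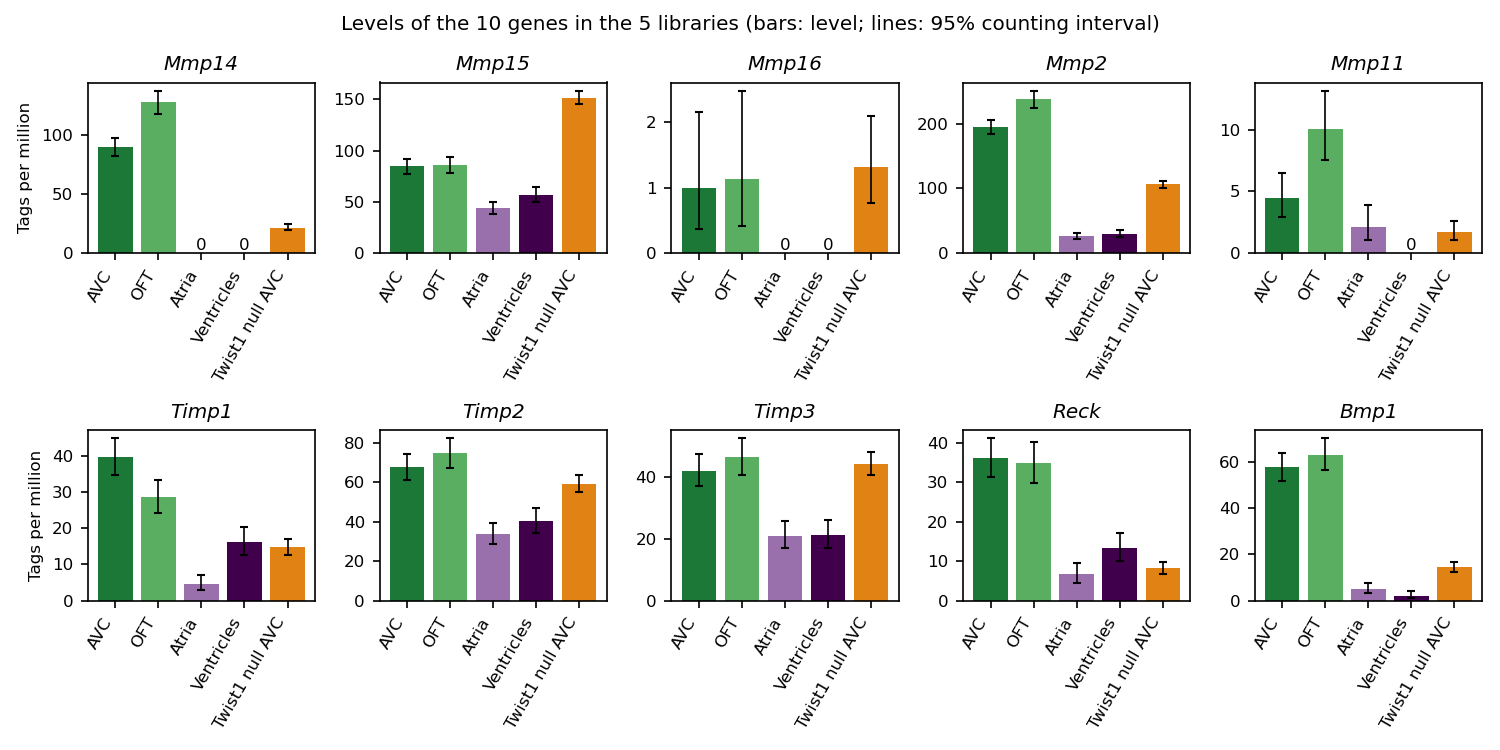
Level of each of the 10 genes in TPM (vertical axis, from 0, a separate scale for each gene) in the 5 libraries; bars are the level of 1 library and lines the 95% exact binomial interval, which covers counting error only. *Mmp2*, *Mmp14* and *Bmp1* stand higher in the AVC and OFT than in the other 3 libraries, and *Mmp14* is listed at 0 in atria and ventricles.

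The membrane-type enzyme *Mmp14* and its substrate's gene *Mmp2* (gelatinase A) had the highest levels among the proteinases in the OFT, on TPM of tags, which do not scale with transcript length. *Mmp14* reached 127 TPM in the OFT (95% exact interval from counting 118 to 137), 89.4 in the AVC and 21.7 in the *Twist1* null AVC, and was listed at 0 in atria and in ventricles. The intervals of the AVC, OFT and *Twist1* null libraries did not overlap. *Gsk3b*, a kinase gene of nearly all cells, was listed at 0 in both chamber libraries too, against 86.2 TPM in the AVC. *Mmp2* had 238 TPM in the OFT, 195 in the AVC, 106 in the *Twist1* null AVC, 29.6 in ventricles and 26.8 in atria. The *Mmp2* ratio of ventricles to atria was 1.10, with a 95% counting interval of 0.855 to 1.43.

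*Bmp1* was likewise highest in the OFT and the AVC. Its level was 63.2 TPM in the OFT, 57.8 in the AVC, 14.6 in the *Twist1* null AVC, 5.14 in atria and 2.13 in ventricles. The OFT and the AVC differed by 1.09-fold in *Bmp1*, with a counting interval of 0.939 to 1.27. *Reck* was at 34.7 TPM in the OFT, 36.0 in the AVC, 13.3 in ventricles, 8.17 in the *Twist1* null AVC and 6.64 in atria, so that the *Twist1* null library lay between the chambers.

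The remaining proteinases were lower, or rested on tags that need more care. *Mmp11* (stromelysin-3, cut by furin inside the cell) had 10.1 TPM in the OFT, 4.44 in the AVC, 2.14 in atria and 1.70 in the *Twist1* null AVC, and was listed at 0 in ventricles. Its single tag type ends in the poly(A) tail after 16 genomic bases. *Mmp16*, another membrane-type enzyme, had 6 tags in the AVC and 6 in the OFT, the smallest count listed, and 17 in the *Twist1* null AVC, and no ratio to a library at 0 is given for it. *Mmp15*, also membrane-type, had 152 TPM in the *Twist1* null AVC, 85.8 in the OFT, 84.6 in the AVC, 56.6 in ventricles and 43.9 in atria, and was the gene of the 10 with the highest level in the *Twist1* null library.

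*Timp2* and *Timp3* had the smallest ratios of the highest to the lowest level over the libraries among the 10 genes. *Timp2* had 74.6 TPM in the OFT, 67.6 in the AVC, 59.2 in the *Twist1* null AVC, 40.2 in ventricles and 33.9 in atria. *Timp3*, the TIMP that binds to the matrix, had 46.3 in the OFT, 44.2 in the *Twist1* null AVC, 42.0 in the AVC and 21.1 in ventricles, while atria held 98 of its tags and ventricles 89, a ratio with a counting interval of 0.744 to 1.35 per library total. *Timp1* had 39.5 in the AVC, 28.5 in the OFT, 16.1 in ventricles, 14.7 in the *Twist1* null AVC and 4.71 in atria. The sum of the 3 was 149 TPM both in the OFT and in the AVC, 118 in the *Twist1* null AVC, 77.4 in ventricles and 59.6 in atria. *Timp2* made up between 45.4% (AVC) and 56.8% (atria) of that sum, while *Timp1* ranged from 7.91% in atria to 26.5% in the AVC.

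Which of the genes were enriched in the valve-forming regions was asked by comparing the AVC with the summed atria and ventricles. 7 of the 10 were called higher and none lower by the exact test of edgeR (unadjusted p under 0.05), where 43.4% of all genes tested were called higher and 8.12% lower. The median log2 ratio was 1.92 over the 8 members listed on both sides and 0.99 over all such genes, so that an excess of tags over the chambers was common. With TMM normalization, which shifted the log2 ratios by -0.95, 3 of the 10 were called higher (*Mmp2*, *Mmp14* and *Bmp1*), against 25.6% of all genes. The *Mmp14* level in the AVC was at least 13.2-fold higher (exact p = 4.79e-15 with the chambers at 0). *Bmp1* was 15.6-fold higher (95% counting interval 10.9 to 23.0, exact p = 2.57e-06) and *Mmp2* 6.92-fold (6.03 to 7.96, exact p = 0.000303). With 5 tags for the missing tag types *Bmp1* was at 7.14 times the chamber level (exact p = 0.00033). Its log2 ratio was 3.49 against the atria alone and 4.76 against the ventricles alone. Of the genes listed on both sides, 96.1% had a lower log2 ratio than *Bmp1* and 86.7% a lower one than *Mmp2*.

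The other 4 calls in the AVC did not hold with TMM. *Timp1* was 3.90-fold higher (exact p = 0.0104, and 0.181 with TMM), *Reck* 3.68-fold (exact p = 0.0146, and 0.215 with TMM) and *Mmp11* 3.95-fold (exact p = 0.0376, and 0.302 with TMM), while *Mmp16* was called on its 6 tags (exact p = 0.0391). The *Timp1* log2 ratio was 3.07 against the atria alone (exact p = 0.000198) and 1.29 against the ventricles alone, where it was not called (exact p = 0.0902). *Reck* was not called against the ventricles alone either (log2 ratio 1.44, exact p = 0.0585). *Mmp11* was not called against the atria alone (log2 ratio 1.05, exact p = 0.302), nor with 5 tags for the ventricles (2.63-fold, exact p = 0.125). *Timp2* was at 1.83 times (counting interval 1.58 to 2.13, exact p = 0.233), *Timp3* at 2.00 times (1.65 to 2.42, exact p = 0.178) and *Mmp15* at 1.69 times (1.49 to 1.93, exact p = 0.298) the chamber level. These 3 log2 ratios lay within 0.23 of the median of all genes.

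The OFT, compared with the same atria and ventricles, had 6 of the 10 called higher and none lower, where 40.6% of all genes were called higher and 8.88% lower. With TMM these were 4 (*Mmp2*, *Mmp11*, *Mmp14* and *Bmp1*), against 26.2% of all genes. *Mmp14* was at least 18.9-fold higher (exact p = 4.72e-16 with the chambers at 0). *Bmp1* was 17.0-fold higher (11.9 to 25.2, exact p = 1.41e-06), *Mmp11* 8.94-fold (4.50 to 19.7, exact p = 0.000493) and *Mmp2* 8.45-fold (7.37 to 9.72, exact p = 8.26e-05). With 5 tags for the missing tag types *Bmp1* was at 7.81 times (exact p = 0.000194) and *Mmp11* at 5.96 times (exact p = 0.00314) the chamber level. Against the ventricles alone the log2 ratio of *Bmp1* was 4.89, and against the atria alone that of *Mmp11* was 2.23 (exact p = 0.0150). *Reck* was 3.55-fold higher (exact p = 0.0178, and 0.197 with TMM), and was not called against the ventricles alone (log2 ratio 1.39, exact p = 0.0724). *Mmp16* was called on its 6 tags, the smallest count listed (exact p = 0.0391, and 0.0619 with TMM). *Timp1* was at 2.81 times the chamber level and did not pass (exact p = 0.0514); against the atria alone it was called (log2 ratio 2.59, exact p = 0.00188), and against the ventricles alone it was not (0.82, exact p = 0.285).

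Between the OFT and the AVC no member was called, where 5.22% of all genes were called higher and 7.35% lower in the OFT. The farthest was *Mmp11*, at 2.26 times its AVC level (counting interval 1.40 to 3.74, exact p = 0.153). *Mmp14* was at 1.43 times (1.27 to 1.60, exact p = 0.483) and *Timp1* at 0.721 times (0.584 to 0.888, exact p = 0.523). Among the chambers, *Timp1* was 3.41-fold higher in ventricles than in atria (2.08 to 5.80, exact p = 0.0349), a call that TMM did not keep (exact p = 0.0753), where 11.1% of all genes were called higher. *Mmp11* was at least 1.81-fold lower in ventricles (exact p = 0.0113), on 10 tags in atria, where 9.03% were called lower. It was not called with 5 tags for the ventricles (exact p = 0.458).

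**Figure D2:**
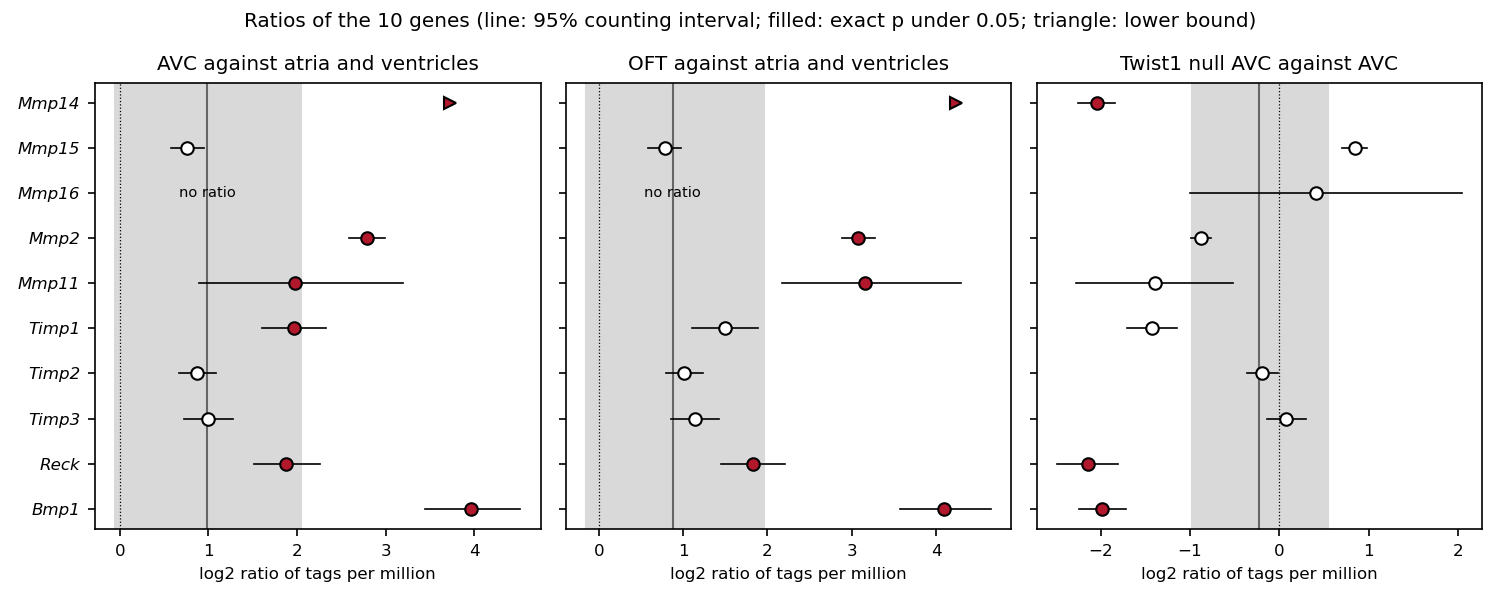
Log2 ratio of TPM (horizontal axis) of each gene in 3 comparisons; circles are ratios with their 95% counting interval, triangles lower bounds, filled symbols exact p under 0.05, the grey line the median and the grey band the quartiles of all genes listed on both sides. *Mmp14*, *Bmp1* and *Mmp2* lie right of the band in the AVC and OFT, as does *Mmp11* in the OFT. In the *Twist1* null AVC *Mmp14*, *Reck*, *Bmp1*, *Timp1* and *Mmp11* lie left of it and *Mmp15* lies right of it.

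The role of *Twist1* was asked by comparing the *Twist1* null AVC with the wild type AVC. 3 of the 10 genes were called lower and none higher, where 12.7% of all genes were called lower and 11.9% higher. *Reck* was 4.41-fold lower in the *Twist1* null (exact p = 0.00542), *Mmp14* 4.13-fold (exact p = 0.00675) and *Bmp1* 3.95-fold (exact p = 0.00872). With TMM the exact p was 0.0125 for *Reck*, 0.0156 for *Mmp14* and 0.0205 for *Bmp1*, and 9.36% of all genes were called lower. After Benjamini-Hochberg adjustment over all genes the exact test gave 0.0556, 0.0650 and 0.0723, so none of the 3 passed. They lay among the lowest 4.21%, 4.98% and 5.63% of the genes listed on both sides.

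*Timp1* was at 0.373 times its wild type AVC level (counting interval 0.306 to 0.452, exact p = 0.0566), *Mmp11* at 0.381 times (0.207 to 0.696, exact p = 0.12) and *Mmp2* at 0.546 times (0.505 to 0.590, exact p = 0.229). *Timp2* was at 0.875 times (0.775 to 0.989, exact p = 0.790) and *Timp3* at 1.05 times (0.908 to 1.23, exact p = 0.921). *Mmp15* was at 1.79 times (1.62 to 1.98, exact p = 0.248). The median log2 ratio over the 10 genes was -1.13, against -0.23 over all genes listed on both sides. Of the 6 cushion mesenchyme markers, *Postn*, *Snai2* and *Sox9* were called lower in the same comparison and *Vcan*, *Prrx1* and *Pdgfra* were not called, *Pdgfra* having 35.2 TPM in the AVC and 35.8 in the *Twist1* null AVC. Among markers of other cell types, *Myh6* (cardiomyocytes), *Tcf21* (epicardium), *Myh11* (smooth muscle), *Fcer1g* and *Ptprc* (macrophages) were called lower, and *Acta2* (smooth muscle), *Emcn* (endothelium) and 4 of 6 erythroid markers higher. The calls of *Myh11* and *Ptprc* rested on 6 AVC tags each, the smallest count listed, and that of *Fcer1g* on 17, against 0 in the *Twist1* null AVC. *Emcn* was at 0 in the AVC and at 2.70 TPM in the *Twist1* null AVC.

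**Figure D3:**
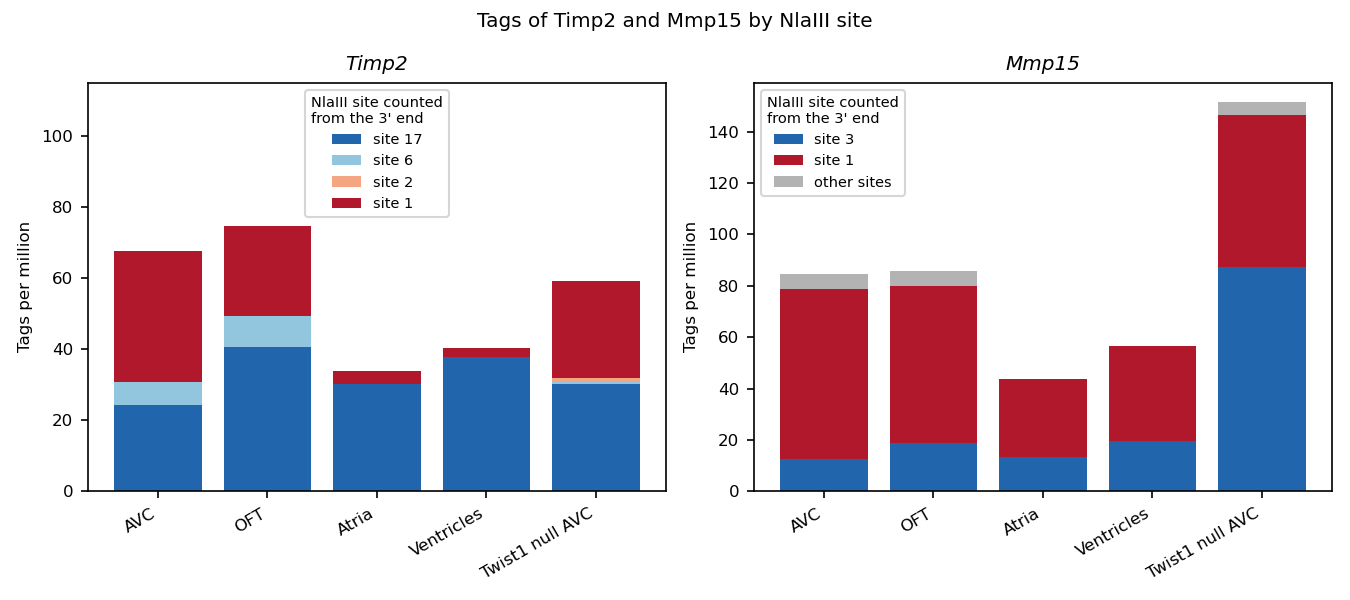
Level in TPM (vertical axis, from 0) of *Timp2* and *Mmp15* in the 5 libraries, stacked by the NlaIII site the tag comes from, counted from the 3′ end (site 1 is the 3′-most). In *Timp2* the share of site 17 is largest in atria and ventricles, and in *Mmp15* site 3 makes up most tags of the *Twist1* null library alone.

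The level of *Timp2* was made of tags with different patterns. The proximal tag had 40.6 TPM in the OFT, 24.4 in the AVC, 30.2 in atria, 37.9 in ventricles and 30.1 in the *Twist1* null AVC, so that both chambers lay between the AVC and the OFT. The 3′-most tag had 36.9 in the AVC, 25.2 in the OFT, 3.64 in atria, 2.37 in ventricles and 27.3 in the *Twist1* null AVC. The proximal tag thus made up 36.0% of *Timp2* tags in the AVC (exact binomial interval 31.4 to 40.9), 54.5% in the OFT, 50.9% in the *Twist1* null AVC, 89.2% in atria (83.3 to 93.6) and 94.1% in ventricles (89.4 to 97.1). From the 3′-most site alone, *Timp2* was higher in the AVC, with a log2 ratio of 3.60 (exact p = 1.83e-05), and in the OFT, with 3.06 (exact p = 0.000217). The log2 ratios of its 2 main tags differed by 4.08 in the AVC comparison, against a median of 1.53 over the 1412 genes whose 2 most abundant tags had at least 100 tags each, and 92.5% of those genes differed less. In the OFT comparison they differed by 2.79 (77.1% of 1300 genes differed less) and in the *Twist1* null comparison by 0.74 (27.4% of 2701 genes).

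The composition of the tags moved with the libraries. Between the AVC and the chambers the median log2 ratio was 0.25 for tag types with at most 4 G or C among their 17 bases and 1.55 for those with at least 12. The *Mmp14* and *Bmp1* main tags have a GC content of 70.6%, the 3′-most *Timp2* tag of 47.1%, the proximal one of 17.6% and the *Timp3* main tag of 5.88%. Within genes, tags starting with T after the site had a log2 ratio lower by 0.92 than the other tags in the AVC comparison (median of 739 genes) and higher by 1.42 in the *Twist1* null comparison (1708 genes). The 3′-most *Timp2* tag starts with T and the proximal one with A. The part of base composition in the results was not tested. Without T-starting tags *Timp3*, whose main tag starts with T, had a log2 ratio of 3.30 in the AVC (exact p = 0.000442) and 3.93 in the OFT (exact p = 4.39e-05), on 47 and 63 tags against 7 in the chambers. Those 7 tags were all of 1 tag type in ventricles, with 0 in atria. The ratio takes the tag types not listed there as 0, and its value with 5 tags for each of them was not computed.

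In the wild type libraries *Mmp15* rested mainly on the 3′-most tag, which is 1 base from an abundant tag. Its share of *Mmp15* tags lay between 65.7% (ventricles) and 78.0% (AVC) there and was 38.9% in the *Twist1* null AVC. The difference is A10G (the neighbour's base first, counted from 1 at the first base after the site). The neighbour is found in transcripts of 179 genes and was counted 26133 times in the AVC, 19879 in the OFT, 25804 in atria, 26256 in ventricles and 71398 in the *Twist1* null library, where the *Mmp15* tag was counted 401, 322, 142, 157 and 766 times. The *Mmp15* tag thus stood at 1.53, 1.62, 0.550, 0.598 and 1.07 per 100 neighbour tags. Between 50 and 51 tags 1 base from the neighbour were listed in each library, and the *Mmp15* tag ranked between 6 and 27 among them. How many of its tags are misread neighbours was not tested.

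The upstream *Mmp15* tag, with no such neighbour, had 18.8 TPM in the OFT, 12.7 in the AVC, 13.5 in atria, 19.4 in ventricles and 87.4 in the *Twist1* null AVC. The *Twist1* null library stood above all 4 wild type libraries, 6.89-fold above the AVC. With tags dropped that lie 1 base from a 10-fold more abundant tag, *Mmp15* was higher in the *Twist1* null AVC (log2 ratio 2.31, exact p = 0.00244), while the 3′-most site by itself gave a log2 ratio of -0.16 (exact p = 0.826). The upstream tag starts with T. Over the 2701 genes with such a pair of tags in this comparison, 81.8% differed less between the 2 tags than *Mmp15* did.

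Genes acting with the proteinases were taken from lists of 45 genes, of which 27 were listed with tags. Together 18 of the 25 with tags in the compared libraries were called higher in the AVC. The OFT also had 18 of 25. Of all genes, 43.4% and 40.6% were called higher. TMM left 13 and 16, where 25.6% and 26.2% of all genes were called. With 5 tags for the missing tag types 11 and 11 remained, where 22.6% and 20.6% of all genes were called higher. None was called lower in either, but TMM called 1 lower in the AVC. In the *Twist1* null AVC 7 of 25 were called lower (6 with TMM, which also called 1 higher), where 12.7% of all genes were. Of 18 other matrix metalloproteinase genes, 13 were at 0 in all 5 libraries, among them *Mmp9* (gelatinase B) and the collagenase genes *Mmp8* and *Mmp13*, although the annotation gives each of the 13 at least 6 tags of its own. *Mmp23* was the most abundant of the rest, with 14.0 TPM in the OFT, 11.7 in the AVC, 0 in atria, 1.66 in ventricles and 7.01 in the *Twist1* null AVC. The AVC had 3 calls in this list (*Mmp19*, *Mmp23* and *Mmp28*, all higher) and the OFT 4, with *Mmp17* added (3 with TMM, which lost *Mmp19*). With 5 tags for the missing tag types the call of *Mmp23* alone remained in each, at 4.72-fold in the AVC (exact p = 0.00781). *Mmp28* was called lower in the *Twist1* null AVC (7.83-fold, exact p = 0.00548), or 4.27-fold with 5 tags for the missing tag types (exact p = 0.0286). *Timp4*, the remaining TIMP gene, was at 0 throughout.

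*Bmp1* has enhancer proteins, PCOLCE and PCOLCE2, that speed up procollagen processing. *Pcolce* had 275 TPM in the OFT, 202 in the AVC, 41.1 in atria, 34.6 in ventricles and 35.1 in the *Twist1* null AVC. It exceeded the chambers 5.31-fold in the AVC (exact p = 0.00154) and 7.23-fold in the OFT (exact p = 0.000226), and was 5.76-fold lower in the *Twist1* null AVC (exact p = 0.000941, adjusted 0.0189 with edgeR). *Pcolce2* was called in the same directions, on 8.39 TPM in the AVC and 1.23 in the *Twist1* null AVC, and TMM left its call in the *Twist1* null comparison only. It was not called in the OFT with 5 tags for the missing tag types (exact p = 0.118). The *Bmp1* paralogs *Tll1* and *Tll2* were at 0.

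Proprotein convertases remove the propeptides of membrane-type metalloproteinases and of MMP11. *Furin* had 15.4 TPM in the OFT, 35.4 in the AVC, 1.29 in atria, 0 in ventricles and 65.5 in the *Twist1* null AVC, and had 6 tags in the chambers, all from atria. With 5 tags for the missing tag types it was at 5.28 times the chamber level in the AVC (exact p = 0.00218) and at 2.79 times in the OFT (exact p = 0.0582). With missing types at 0, 2 of the 4 convertases were called higher in the AVC (*Furin* and *Pcsk7*, where 43.4% of all genes were, and without *Pcsk7* under TMM), 2 in the OFT (*Furin* and *Pcsk6*, where 40.6% were) and none was called in the *Twist1* null AVC, where *Furin* was at 1.85 times the AVC level (exact p = 0.227).

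In the plasminogen system, whose protease plasmin can activate several proMMPs, *Plaur* and *Serpine2* were called higher in the AVC and in the OFT, *Plaur* not with 5 tags for the missing tag types. *Serpine2*, which encodes protease nexin-1, had 62.6 TPM in the OFT, 116 in the AVC, 4.93 in atria, 3.79 in ventricles and 65.7 in the *Twist1* null AVC. *Plat* and *Plaur* were called lower in the *Twist1* null AVC (*Plaur* not with TMM), and *Plat* (tissue plasminogen activator) was 4.44-fold lower (exact p = 0.00477). *Plau* and *Plg* were at 0.

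Among cell-surface partners, *Bsg*, an inducer of metalloproteinases, *Cd44*, *Itgb3* and the clearance receptor gene *Lrp1* were called higher in both the AVC and the OFT, and *Itgav* was not called in any of the 5 comparisons. The *Bsg* call in the AVC was lost with TMM, and that of *Itgb3* there with 5 tags for the missing tag types. *Lrp1* was 3.70-fold lower in the *Twist1* null AVC (exact p = 0.0117), while *Bsg* was at 0.956 times its AVC level (exact p = 0.929). Of 7 ADAM sheddase genes, the AVC had 5 called higher (3 with TMM, which lost *Adam15* and *Adam17*) and the OFT 4, where 43.4% and 40.6% of all genes were. With 5 tags for the missing tag types *Adam9* and *Adam15* remained in the AVC and *Adam9*, *Adam12* and *Adam15* in the OFT. *Adam9* exceeded the chambers 19.1-fold in the AVC (exact p = 4.28e-07) and 16.1-fold in the OFT (exact p = 1.77e-06), or 9.96-fold and 8.34-fold with 5 tags for the missing types, and was 5.09-fold lower in the *Twist1* null AVC (exact p = 0.00210).

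**Figure D4:**
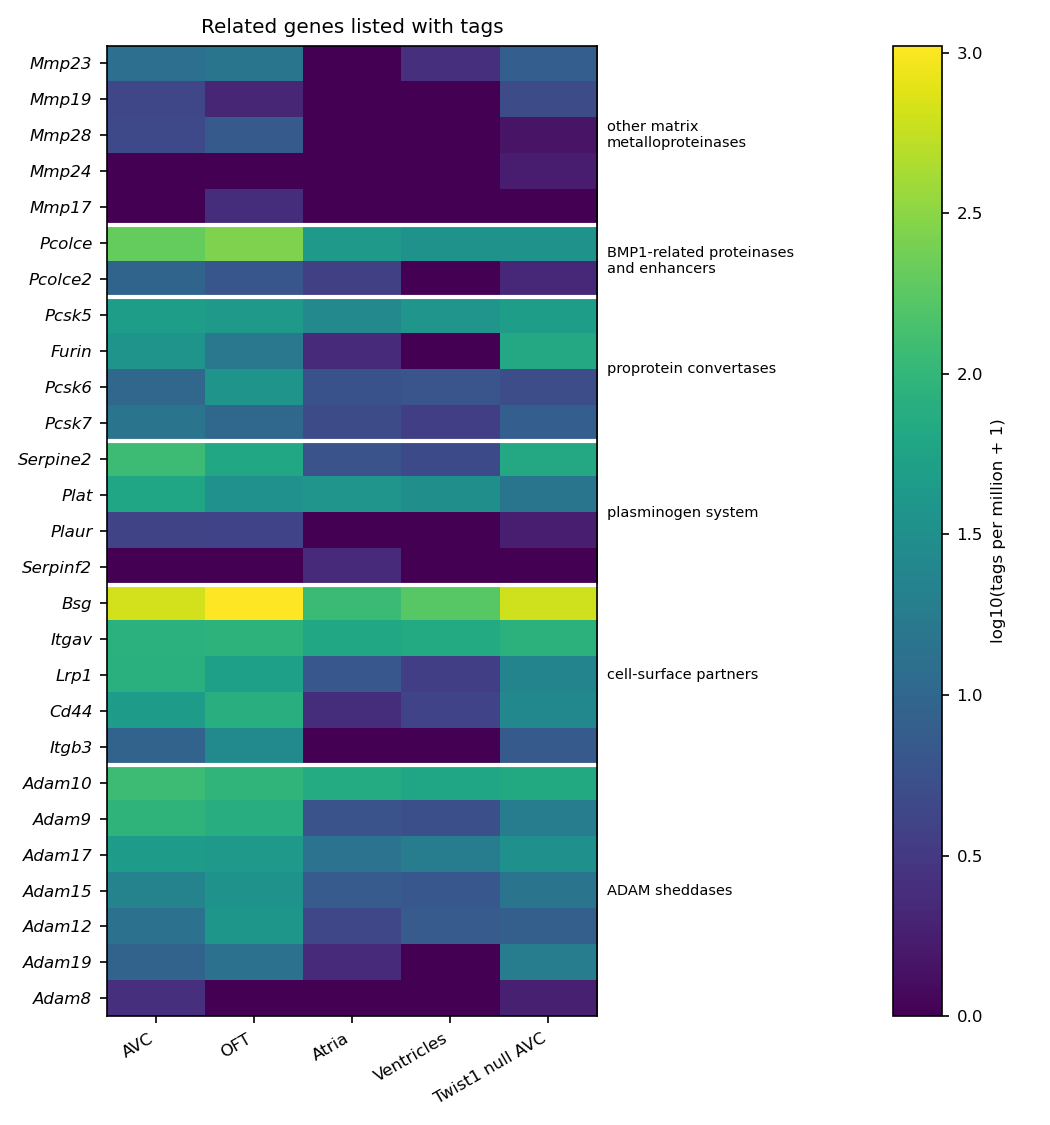
Levels of the 27 related genes listed with tags, as log10 of TPM + 1 (colour), in the 5 libraries (columns), grouped by list and ordered within each by total tags. *Bsg* is the most abundant, and the *Pcolce* row is brightest in the AVC and OFT.

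The profiles nearest to those of *Mmp2*, *Mmp14* and *Timp3* were sought over the 5 libraries among 9087 genes with a mean of at least 5 TPM, by the distance between centred log2(TPM + 1) values. Nearest to *Mmp2* were *Nav1* (distance 0.185), *D030056L22Rik* (0.198) and *Lasp1* (0.230). Nearest to *Mmp14* were *Gsk3b* (0.329), *Alpk3* (0.497) and *Nkiras2* (0.609), each at 0 in atria and ventricles. Nearest to *Timp3* were *Serinc3* (0.0981), *Rfc4* (0.129) and *Dda1* (0.171).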

How the data were processed

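The deposited files hold counts of reads per tag type, which the authors made from the first 21 bases of reads passing the Chastity filter and listed where a tag type had more than 5 tags. The submitters' processing notes name mm9; coordinates here are from GRCm38. Tags were matched in Python 3.11.15 (pandas 2.3.3, scipy 1.17.1) to all NlaIII sites on the sense strand of 33363 RefSeq-linked transcripts of GENCODE M21. Tags of 1 gene were summed and divided by the library total. Groups came from the labels.

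The comparisons used edgeR 4.0.16 in R 4.3.3 on the counts (exact test, two-sided), with the dispersion of 0.12 that the methods state and library totals as sizes. No group has replicates, so the dispersion could not be estimated and the quasi-likelihood test could not be run. A call is an unadjusted p under 0.05. The 95% intervals on levels (Clopper-Pearson) and on ratios cover counting error only. In simulated counts 4-fold changes in 200 genes were called in 73.0% of cases for the *Twist1* null comparison (12961 genes).

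The named genes were all 10 members, *Twist1*, related genes with values for at most 4 of a list, and the nearest profiles; cell type markers were named after their values were seen. The members and lists were chosen with earlier results of these data known. 17 alternative settings, among them DESeq2 1.42.0 size factors, were set in advance, and 1 was added after seeing the data. Antisense tags and tags of several genes were left out of the levels. A gene of the plasminogen system list is not reported here and was left out of the list counts.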

Additional observations from a re-analysis of the deposited data

Results flagged for a closer look

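Tags antisense to the 10 genes lie outside the levels given above. Only those that match no other annotated transcript in sense are counted here, which leaves out further *Timp3* tag types. They were listed for 8 of the 10 genes, with sums above the smallest count listed. Summed over the 5 libraries there were 336 for *Mmp15*, 120 for *Timp2*, 90 for *Mmp2*, 80 for *Timp3*, 59 for *Bmp1*, 58 for *Mmp14*, 34 for *Mmp11* and 24 for *Reck*. Of the *Mmp15* antisense tags, 226 were in the *Twist1* null AVC, 68 in the AVC, 30 in the OFT, 12 in atria and 0 in ventricles. These are counts not scaled to the library totals, which were 12977237 for the *Twist1* null AVC and 6075421 for the AVC. Of the 226, 212 were of 1 tag type that starts with T. It stood at 16.3 TPM in the *Twist1* null AVC and 7.57 in the AVC. The *Twist1* null library held 83 of the *Timp2* antisense tags and none of them was in the AVC. Antisense tags of all genes, here with those that match transcripts without a RefSeq link in sense, made up 9.58% of all tags in the *Twist1* null library and 6.42% in the AVC.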

How the results depend on the processing

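No paired analysis was possible because each group has 1 library. Of 728 values of single genes under 18 alternatives, 642 kept their direction and their side of the threshold, 35 lost and 16 gained a call, and 35 changed sign, all of them with an exact p of at least 0.464 under the alternative; the cause was not tested. The log2 ratios of *Mmp14* and *Bmp1* in the AVC and the OFT against the chambers were called under every alternative.

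In the AVC against the chambers, 3 members were called higher with TMM normalization and 3 with DESeq2 size factors, 2 with a dispersion of 0.4 and 4 against the ventricles alone. Of all genes, 25.6%, 25.2%, 20.3% and 40.2% were called higher, in that order. In the *Twist1* null AVC, 5 were called lower with a dispersion of 0.05, 0 with 0.4 and 0 with adjusted p. Of all genes, 23.2%, 2.36% and 3.93% were called lower, in that order. With more than 10 tags per tag type 1 was called higher (*Mmp16*), where 16% of all genes were. That limit removed the 6 AVC tags of *Mmp16* and kept its 17 tags in the *Twist1* null AVC. Without 1-base neighbours of tags 10 times as abundant 1 was called higher (*Mmp15*), where 11.9% of all genes were. In the OFT against the AVC, 1 was called higher with a dispersion of 0.05, where 8.51% of all genes were. In the ventricles against the atria, 0 were called higher with TMM, DESeq2 size factors, totals without haemoglobin, a dispersion of 0.4 or adjusted p. Of all genes, 9.16%, 9.17%, 9.31%, 4.03% and 3.47% were called higher, in that order. Without T-starting tags 2 were called higher, where 11.4% of all genes were. With a dispersion of 0.4, adjusted p, at least 50 tags per gene or 5 tags for missing tag types, 0 were called lower. Of all genes, 4.28%, 2.8%, 1.71% and 0.667% were called lower, in that order.

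Values that changed sign are log2 ratios. AVC against chambers: *Mmp15* -0.19 with TMM and -0.23 with DESeq2, *Timp2* -0.078 with TMM, -0.11 with DESeq2 and -0.47 without T-starting tags. OFT against chambers: *Mmp15* -0.076 with TMM and -0.095 with DESeq2. *Twist1* null against AVC: *Timp2* 0.045 with TMM, 0.040 with DESeq2 and 0.35 without T-starting tags, *Mmp16* -0.095 with 5 tags for missing tag types, *Mmp15* -0.16 from the 3′-most site and -0.18 without T-starting tags, *Timp3* -0.26 without T-starting tags. OFT against AVC: *Reck* 0.030 with TMM and 0.030 with DESeq2, *Mmp15* -0.011 with more than 10 tags per tag type and -0.10 without T-starting tags, and from the 3′-most site *Mmp15* -0.11, *Timp2* -0.55, *Timp3* -0.025 and *Bmp1* -0.012. Ventricles against atria: with TMM *Mmp2* -0.18, *Timp2* -0.073 and *Timp3* -0.32; with DESeq2 -0.17, -0.063 and -0.31; with totals without haemoglobin -0.14, -0.031 and -0.28; *Timp3* -0.11 with more than 10 tags per tag type, -0.031 with 5 tags for missing tag types and -0.11 from the 3′-most site; *Timp2* -0.62 from the 3′-most site.

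Without neighbours of tags 100 times as abundant, *Mmp15* had a log2 ratio of 2.37 in the AVC (exact p = 0.00191) and 2.40 in the OFT (exact p = 0.00181) against the chambers, since this limit removed its 3′-most tag from the atria and ventricles and left it in the AVC and OFT.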
